A study of Mus musculus with 6 samples.

Results

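Liver transcriptomes of acute ethanol-exposed and control mice were examined for 10 genes of the NRF2 antioxidant and glutathione system, namely Nfe2l2, Keap1, Nqo1, Hmox1, Gclc, Gclm, Srxn1, Txnrd1, Gsr and Slc7a11. They were matched by gene name, and all 10 were found among the 28880 genes of the deposited table, of which 16717 passed a filter on low counts and were tested. The livers came from 6 male wild type C57BL/6J mice aged 6 to 8 weeks, all labelled as batch 1. The 3 acute ethanol-exposed mice were fasted for 12 h, were given ethanol (50% v/v) by oral gavage at 6 g/kg, and their livers were collected after 24 h. The 3 control mice had no ethanol. Whether they were fasted or gavaged is not given in the sources used here, so fasting and gavage cannot be told apart from ethanol in any difference below.

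NRF2, the product of Nfe2l2, is a transcription factor that is held back by KEAP1, an adaptor which hands it to a CUL3 ubiquitin ligase for degradation. When oxidants or electrophiles modify cysteines of KEAP1, NRF2 accumulates, pairs with a small MAF protein (MAFF, MAFG or MAFK) and binds antioxidant response elements (AREs), for which the repressor BACH1 competes. Its known targets make and recycle glutathione, reduce thioredoxin and peroxiredoxins, degrade heme and conjugate or export foreign compounds. The liver makes most of the body's circulating glutathione and oxidises most ingested ethanol. NRF2 is regulated largely at the protein level, which was not measured here.

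Each library held between 60514417 and 74210869 counts. TMM factors, which set the libraries on a common scale, ran from 0.768 to 0.836 in acute ethanol-exposed mice and from 1.26 to 1.27 in control mice, and the 1000 most abundant genes held 80.7% to 82.9% and 73.7% to 74.5% of the counts. Ethanol replicate 3 stood apart from the other acute ethanol-exposed mice on the second principal component (-88.7, against 33.4 and 51.7). Where it lies far from them in a DEG of the members or of the pathway lists, or in a ratio, the value without it is given too. The labelled tissue showed its markers: the summed level of 10 hepatocyte genes was 147019 to 155034 CPM, counts set to a common library size through the TMM factors, in acute ethanol-exposed mice and 78148 to 90394 CPM in control mice. Alb alone was 92779 to 94791 CPM and 49630 to 59735 CPM of these sums. On the deposited FPKM, which is scaled by library size, Alb overlapped between the groups. Of the 10 genes, 4 were higher and 0 lower past the thresholds described below, beside 10.4% and 13.8% of all genes. Each library is labelled as a replicate of its group and is called a mouse here, and p-values measure the spread between these libraries.

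Promoter windows of Srxn1, Txnrd1, Gclm and Keap1 are shown first, since NRF2 acts through short DNA motifs. These genes passed an adjusted p under 0.05, and Srxn1 alone of them also passed the fold threshold described below. RefSeq windows (GRCm38.p6, 250 bases before to 50 bases after a start site) matched 7 of the 10 genes with 9 windows, and none was found for Hmox1, Gclc and Gsr. Both strands were searched for the ARE core TGACNNNGC (N is any base), which is held by 12.4% of all 32851 windows, and for the related AP-1 site TGANTCA, held by 7.81%. The motifs can overlap each other, but no matches did so here. A match describes these letters only and is not shown to be bound. The 250 bases before the start site of Srxn1 (chr2:152105274-152105523, plus strand), of the second Txnrd1 window (chr10:82858956-82859205, plus strand), of Gclm (chr3:122245307-122245556, plus strand) and of Keap1 (chr9:21239333-21239582, minus strand) are written in the direction of the gene, with motif matches in capitals.
Srxn1: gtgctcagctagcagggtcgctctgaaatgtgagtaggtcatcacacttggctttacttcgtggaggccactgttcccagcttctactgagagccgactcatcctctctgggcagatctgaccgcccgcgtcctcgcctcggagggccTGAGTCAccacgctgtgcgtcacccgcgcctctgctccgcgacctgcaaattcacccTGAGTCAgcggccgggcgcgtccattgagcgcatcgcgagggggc
Txnrd1: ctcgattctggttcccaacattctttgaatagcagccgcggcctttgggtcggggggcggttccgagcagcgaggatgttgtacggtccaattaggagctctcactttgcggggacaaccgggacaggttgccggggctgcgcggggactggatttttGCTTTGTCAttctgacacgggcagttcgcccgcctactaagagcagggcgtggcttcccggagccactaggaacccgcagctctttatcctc
Gclm: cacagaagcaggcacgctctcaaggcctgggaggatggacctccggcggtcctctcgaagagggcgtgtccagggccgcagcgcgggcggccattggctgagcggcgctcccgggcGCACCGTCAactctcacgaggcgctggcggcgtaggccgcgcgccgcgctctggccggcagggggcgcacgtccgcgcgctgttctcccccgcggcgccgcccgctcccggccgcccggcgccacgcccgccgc
Keap1: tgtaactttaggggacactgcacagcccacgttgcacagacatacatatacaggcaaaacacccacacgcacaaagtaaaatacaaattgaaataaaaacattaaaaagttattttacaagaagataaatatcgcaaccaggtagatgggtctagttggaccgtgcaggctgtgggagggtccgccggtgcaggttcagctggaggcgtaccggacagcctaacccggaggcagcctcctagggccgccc

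The Srxn1 window held TGAGTCA, an AP-1 match, at bases -102 to -96 and at -45 to -39 relative to the start site, and the ARE core TGACCTAGC on the opposite strand at bases 29 to 37 after it. In Gclm the ARE core TGACGGTGC lay on the opposite strand at -134 to -126. The second of the 3 Txnrd1 windows held TGACAAAGC on the opposite strand at -92 to -84. The Nfe2l2 window held TGACTCCGC at -240 to -232. In the windows of Keap1, Nqo1 and Slc7a11 and in the other 2 Txnrd1 windows these letters were not found. Sites outside the windows were not searched, so this does not show that a gene lacks an ARE.

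Differentially expressed genes (DEGs) were taken at an adjusted p under 0.05, by the quasi-likelihood test of edgeR, adjusted after Benjamini and Hochberg over all 16717 genes, together with an absolute log2 fold change above 1. Of the 9 genes tested, Hmox1 and Srxn1 were upregulated and Gclc was downregulated in acute ethanol-exposed mice. That is 2 higher and 1 lower in a table in which 10.4% of genes were called higher and 13.8% lower (24.2% in either direction). By the adjusted p alone, 3 were higher (Hmox1, Srxn1 and Txnrd1) and 3 lower (Gclc, Gclm and Keap1), where 21.5% of all genes passed in each direction (43.0% together). In the same 6 genes the CPM values of the groups did not overlap, as in 28.0% of all genes on the higher side, 31.0% on the lower side and 59.0% together. The median log2 fold change of the 9 genes was 0.02, beside -0.04 for all genes tested.

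**Figure D1:**
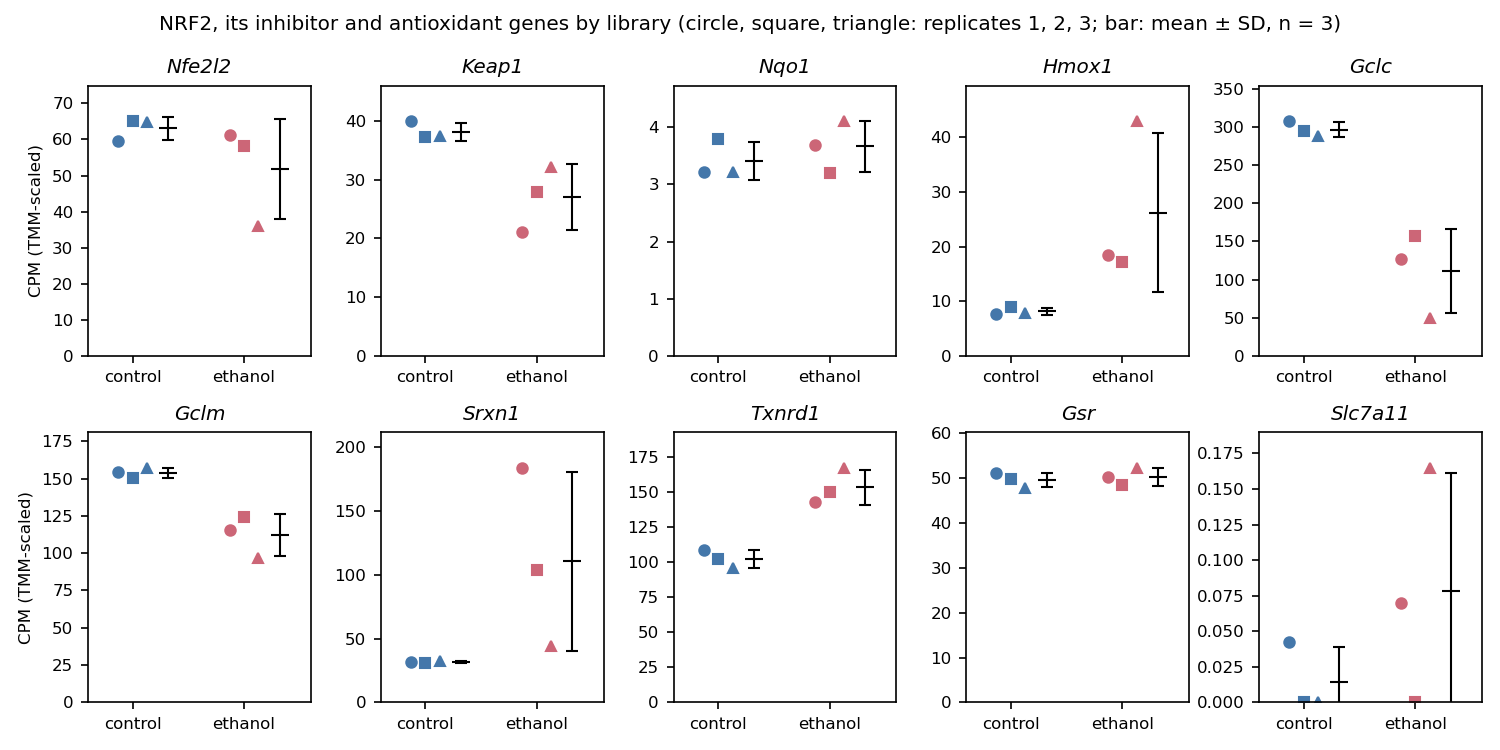
CPM (counts set to a common library size through TMM factors) of the 10 genes in each library of control and acute ethanol-exposed mice, with replicates 1, 2 and 3 as circle, square and triangle and a bar for the mean ± SD (n = 3). Hmox1 and Srxn1 lie higher and Gclc lower in all 3 acute ethanol-exposed mice. Ethanol replicate 3 lies far from the other acute ethanol-exposed mice for Hmox1 (43.0 CPM) and Gclc (49.5 CPM). For Srxn1 all 3 acute ethanol-exposed mice lie far apart, with ethanol replicate 3 the lowest (44.3 CPM).

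Neither NRF2 nor its inhibitor was a DEG. Nfe2l2 (ENSMUSG00000015839, chr2:75505857-75534985, minus strand), which encodes NRF2, stood at 61.2, 58.1 and 35.9 CPM in ethanol replicates 1 to 3 and at 59.5, 65.1 and 64.8 CPM in control replicates 1 to 3. Ethanol replicate 3 was low, and the other acute ethanol-exposed mice overlapped the controls. The log2 fold change was -0.29 ± 0.20 (SE), and it did not pass (edgeR adjusted p = 0.279). Without ethanol replicate 3 it was -0.07, and with library size alone -0.95 (edgeR adjusted p = 0.00779).

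Keap1 (ENSMUSG00000003308, chr9:21141026-21150657, minus strand), the inhibitor, was at 21.1, 28.0 and 32.1 CPM in acute ethanol-exposed mice and at 40.0, 37.2 and 37.4 CPM in control mice. Every acute ethanol-exposed mouse lay lower than every control mouse. The log2 fold change of -0.50 ± 0.16 passed the adjusted p alone (edgeR, 0.0413) but not the fold threshold. This pass was lost without any one of ethanol replicates 1 and 2 and control replicates 1, 2 and 3 (edgeR adjusted p of 0.0632, 0.0695, 0.121, 0.0994 and 0.103), and with the trend with transcript length removed (-0.27, edgeR adjusted p = 0.194) or no filter (edgeR adjusted p = 0.0572). With library size alone Keap1 passed both thresholds (-1.16, edgeR adjusted p = 0.00110). It also did so in the 3 limma settings of the processing notes (-1.17 to -1.02, limma adjusted p of 0.000778 to 0.00125). Gm16754, which overlaps Keap1 on the opposite strand, held only 20 to 109 counts. Positions here are copied from the deposited table, whose build is taken up in the processing notes.

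Among 17 partners and regulators of NRF2, all tested, 4 rose and 1 fell (29.4%, beside 24.2% of all genes), with a median log2 fold change of 0.12. The small MAF genes differed from each other. Maff stood at 56.3, 90.2 and 8.87 CPM in acute ethanol-exposed mice and at 1.45, 1.40 and 1.70 CPM in control mice, and it rose by 5.09 ± 0.80 on the log2 scale (edgeR adjusted p = 0.00270), or 5.60 without ethanol replicate 3. Mafk stood at 36.7, 51.4 and 26.4 CPM against 8.56, 8.58 and 10.4 CPM and rose by 2.06 ± 0.24 (edgeR adjusted p = 0.000926), or 2.27 without ethanol replicate 3. In both genes ethanol replicate 3 was the lowest of the acute ethanol-exposed mice and still lay above the controls. The last small MAF gene, Mafg, had a log2 fold change of -0.28 ± 0.12 that did not pass (edgeR adjusted p = 0.0973).

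Bach1, the competing repressor at AREs, was at 82.2, 79.0 and 35.7 CPM in acute ethanol-exposed mice and at 23.1, 20.7 and 20.1 CPM in control mice. It rose by 1.62 ± 0.30 on the log2 scale (edgeR adjusted p = 0.00511), by 1.93 without ethanol replicate 3, and by 0.96, under the fold threshold, with library size alone. Its relative Bach2 also rose (1.84, and 2.13 without ethanol replicate 3). Nfe2l1, which encodes the related factor NRF1, fell by 1.23 ± 0.14 (edgeR adjusted p = 0.000803), with 29.4, 32.4 and 40.8 CPM against 83.3, 80.6 and 76.3 CPM. Cul3 (log2 fold change 0.32, edgeR adjusted p = 0.0383) and Sqstm1, which encodes the KEAP1-binding autophagy receptor p62 (0.12, edgeR adjusted p = 0.398), were not DEGs. Markers of myeloid and other cell types are given with Hmox1, and their part in these values was not tested.

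Heme degradation was represented by Hmox1 (ENSMUSG00000005413, chr8:75820249-75827217, plus strand), the inducible heme oxygenase, which opens the heme ring to biliverdin and frees iron. It stood at 18.5, 17.2 and 43.0 CPM in ethanol replicates 1 to 3 and at 7.74, 8.91 and 7.88 CPM in control replicates 1 to 3. All acute ethanol-exposed mice lay above all controls, with ethanol replicate 3 highest. Hmox1 rose by 1.68 ± 0.35 on the log2 scale (edgeR adjusted p = 0.00830), the mean being 3.21 times that of control mice. Without ethanol replicate 3 the rise was 1.14 (edgeR adjusted p = 0.000188), and Hmox1 was a DEG when any single library was left out. The call was lost with library size alone (0.998, edgeR adjusted p = 0.0352). It was also lost in the 3 limma settings of the processing notes (0.78 to 0.87, limma adjusted p of 0.0505 to 0.0547).

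Hmox1 is also made by macrophages that clear red cells. The 12 Kupffer cell and macrophage markers summed to 138 to 187 CPM in acute ethanol-exposed mice and 164 to 179 CPM in controls, which overlapped. Of these markers 1 was upregulated (Cd68) and none downregulated, while Csf1r (-0.71, edgeR adjusted p = 0.0215) and Clec4f (-0.37, edgeR adjusted p = 0.0471) were lower by the adjusted p alone. Monocyte and neutrophil markers summed to 40.8 to 2666 CPM against 4.60 to 10.8 CPM, with 5 of 9 tested upregulated and 1 (Ccr2, with 0 counts in every acute ethanol-exposed mouse) downregulated. Over all genes 10.4% were called higher and 13.8% lower. Lcn2, which hepatocytes can also make, was most of the sum in every acute ethanol-exposed mouse (49.7, 36.4 and 2650 CPM). The other 9 markers, summed apart after these values were seen, came to 3.48, 4.41 and 15.9 CPM against 1.91, 2.72 and 2.90 CPM. Ethanol replicate 3 was the highest in both sums, while Ly6g, a defining neutrophil marker, had 9 counts there and 0 in the other 5 libraries. Erythroid markers summed to 476 to 708 CPM against 157 to 193 CPM, with the hemoglobin genes upregulated. Slc4a1 was near absent from both groups, at 0 counts in the acute ethanol-exposed mice and at 0, 8 and 0 counts in control mice, and was not tested. Stellate cell markers summed to 136 to 167 CPM against 116 to 128 CPM, and none of the 7 was a DEG. Endothelial markers overlapped in sum (90.1 to 159 CPM against 95.1 to 112 CPM). Of these 7, Lyve1 (3.59) and Cdh5 (1.19) were upregulated, and Kdr (-1.57) and Oit3 (-1.30) downregulated. Cholangiocyte markers also overlapped in sum, with 1 of 5 tested upregulated (Sox9, 2.78) and none downregulated. In bulk liver, fewer cells of a type and less RNA per cell cannot be told apart, and the part of these cells in the Hmox1 values was not tested.

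Of 6 further genes of heme and iron handling, 1 rose and 1 fell (33.3%, beside 24.2% of all genes), and the median log2 fold change was 0.66. Blvrb, which encodes biliverdin reductase B, was at 161, 131 and 108 CPM in acute ethanol-exposed mice and at 56.0, 63.0 and 73.6 CPM in control mice, a rise of 1.06 ± 0.17 (edgeR adjusted p = 0.00318). Its fold change dropped under the threshold without control replicate 1 (0.97), without ethanol replicate 1 (0.90) and with upper quartile factors (0.96). With library size alone it was 0.39 (edgeR adjusted p = 0.0980). Slc40a1, which encodes the iron exporter ferroportin, stood at 16.6, 15.2 and 12.3 CPM against 48.8, 39.2 and 38.4 CPM and fell by 1.52 ± 0.16 (edgeR adjusted p = 0.000545). Hmox2, the constitutive heme oxygenase, had a log2 fold change of 0.82 ± 0.24 (edgeR adjusted p = 0.0279), under the fold threshold.

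Glutathione synthesis starts with glutamate-cysteine ligase, whose catalytic subunit is encoded by Gclc and whose modifier subunit by Gclm. Gclc (ENSMUSG00000032350, chr9:77661817-77701767, plus strand) stood at 127, 157 and 49.5 CPM in ethanol replicates 1 to 3 and at 308, 294 and 288 CPM in control replicates 1 to 3. All acute ethanol-exposed mice lay lower than all controls, and ethanol replicate 3 was the lowest. Gclc fell by 1.42 ± 0.37 on the log2 scale (edgeR adjusted p = 0.0202), to a mean of 0.375 times that of control mice. It fell by 1.05 without ethanol replicate 3 (edgeR adjusted p = 0.000191). The call was lost without ethanol replicate 1 (-1.51, edgeR adjusted p = 0.0527) or control replicate 1, 2 or 3 (-1.39, -1.42 and -1.44, edgeR adjusted p of 0.0635, 0.0582 and 0.0574).

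Gclm (ENSMUSG00000028124, chr3:122039206-122064381, plus strand) was at 116, 124 and 96.8 CPM in acute ethanol-exposed mice and at 154, 150 and 157 CPM in control mice. The groups did not overlap, but its log2 fold change of -0.46 ± 0.12 (edgeR adjusted p = 0.0185) was smaller than the fold threshold. Leaving out ethanol replicate 1 or control replicate 1, 2 or 3 took its edgeR adjusted p to 0.0516, 0.0569, 0.0595 and 0.0727, and removing the trend with transcript length gave -0.22 (edgeR adjusted p = 0.179). With library size alone Gclm passed both thresholds (-1.12, edgeR adjusted p = 0.000643). The same held in the 3 limma settings (-1.13 to -1.08, limma adjusted p of 0.000423 to 0.000633). Gm17494 overlaps Gclm on the opposite strand and held 844 to 1589 counts per acute ethanol-exposed mouse and 415 to 992 counts per control mouse. Since no source used here says whether counting used the strand, reads of this pair cannot be told apart.

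Slc7a11 (ENSMUSG00000027737, chr3:49846975-50398063, minus strand), the light chain of the cystine-glutamate exchanger that brings in cystine for glutathione, was close to undetected. It had 4, 0 and 9 counts in acute ethanol-exposed mice and 4, 0 and 0 counts in control mice, and it was left out of the test by the filter on low counts. A count of 0 allows up to 3 counts, which is 0.0320 to 0.0550 CPM in these libraries (counting error only). With the filter removed it did not pass among 26459 genes (edgeR adjusted p = 0.420), so a difference was not detectable at this depth. Its heavy chain Slc3a2 was at 37.7, 49.4 and 49.8 CPM against 27.1, 27.9 and 25.1 CPM, with a log2 fold change of 0.77 ± 0.14 (edgeR adjusted p = 0.00402), under the fold threshold.

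Of 15 tested genes of glutathione synthesis and turnover, 2 rose and 1 fell (20.0%, beside 24.2% of all genes), with a median log2 fold change of 0.24. Chac1, whose product degrades glutathione and which is a known target of the ATF4 stress pathway, stood at 24.3, 13.2 and 49.2 CPM in acute ethanol-exposed mice and at 0.778, 0.945 and 0.777 CPM in control mice. It rose by 5.12 ± 0.51 on the log2 scale (edgeR adjusted p = 0.000481), and by 4.50 without ethanol replicate 3. Its paralog Chac2, of the same enzyme activity, went the other way, with 4.62, 7.46 and 3.99 CPM against 20.9, 17.9 and 23.8 CPM, and fell by 1.96 ± 0.25 (edgeR adjusted p = 0.00132). Oplah, which encodes the 5-oxoprolinase that returns glutamate from glutathione breakdown, rose by 1.03 ± 0.11 (edgeR adjusted p = 0.000537), to 152 to 163 CPM from 71.5 to 85.1 CPM. It came under the fold threshold without control replicate 3 (0.96), with upper quartile factors (0.93), with no filter (0.997) and with library size alone (0.36). Gss, the glutathione synthetase of the second step, had a log2 fold change of 0.39 ± 0.16 that did not pass (edgeR adjusted p = 0.0919). Of 10 tested ATF4 and CHOP genes, 4 were upregulated (Atf3, Chac1, Ppp1r15a and Vldlr) and none downregulated, where 10.4% of all genes were called higher, while Atf4, Ddit3, Asns and Trib3 did not pass. They summed to 305 to 559 CPM against 118 to 125 CPM, of which Atf3 alone was 226, 365 and 10.8 CPM in ethanol replicates 1 to 3. Their part in these values was not tested.

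Among the enzymes that use glutathione, 6 peroxidases and 11 transferases were tested. Of the 6 glutathione peroxidases only Gpx3 rose and none fell, where 24.2% of all genes were DEGs, and by the adjusted p alone 2 were higher (Gpx3 and Gpx4). Gpx3, the secreted peroxidase, stood at 3.95, 4.99 and 8.98 CPM against 1.63, 2.99 and 3.06 CPM and rose by 1.22 ± 0.38 (edgeR adjusted p = 0.0375). Its call was lost when any library but ethanol replicate 1 was left out, and its log2 fold change then ran from 0.81 (without ethanol replicate 3) to 1.37 (without control replicate 3). Gpx4, which reduces lipid peroxides, had a log2 fold change of 0.85 ± 0.11 (edgeR adjusted p = 0.00140), and Gpx1, the main cytosolic peroxidase, one of 0.27 ± 0.13 (edgeR adjusted p = 0.121). Among the 11 glutathione transferases, chosen as known NRF2 targets, none rose and 2 fell past both thresholds, with a median log2 fold change of 0.45. By the adjusted p alone 4 were higher (Gsta1, Gsta4, Gstm1 and Gstp2) and 2 lower, where 21.5% of all genes passed in each direction. Gstm4 stood at 20.1, 17.4 and 12.6 CPM against 69.2, 64.3 and 68.0 CPM and fell by 2.01 ± 0.18 (edgeR adjusted p = 0.000303). Gstm3 fell by 1.09 ± 0.20 (edgeR adjusted p = 0.00473), by 0.97 without ethanol replicate 2 and by 1.31 without ethanol replicate 3. Transferases of the alpha, mu and pi classes have close paralogs, so their counts are uncertain.

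**Figure D2:**
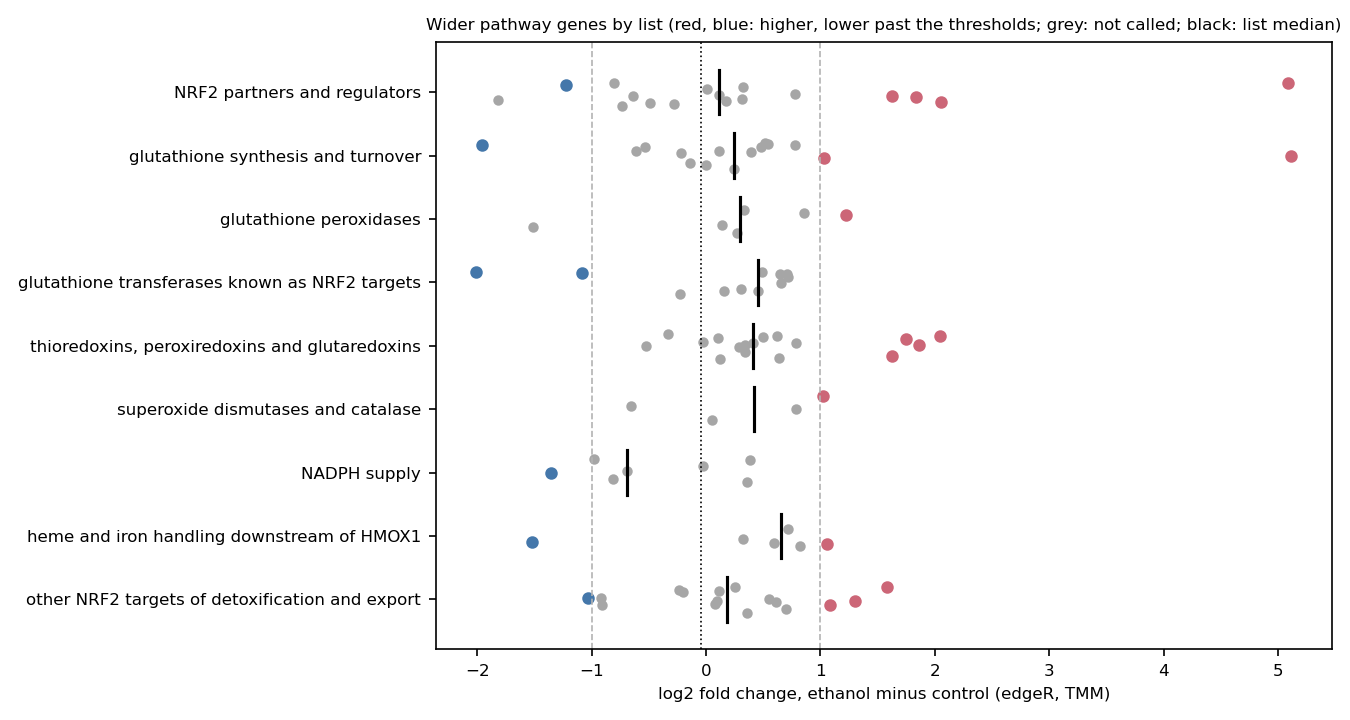
Log2 fold change (acute ethanol-exposed minus control mice, edgeR with TMM factors) of each tested gene of 9 lists around NRF2, in red or blue where it passed both thresholds and in grey otherwise. Black bars mark list medians, the dotted line the median of all genes (-0.04) and dashed lines the fold threshold. Coloured points lie on both sides, 16 higher and 7 lower of 99 genes, with Maff (5.09) and Chac1 (5.12) farthest to the right.

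Recycling of glutathione and of thioredoxin was served by a pair of related reductases. Gsr (ENSMUSG00000031584, chr8:34142551-34188191, plus strand), glutathione reductase, stood at 50.3, 48.4 and 52.3 CPM in acute ethanol-exposed mice and at 51.1, 49.8 and 47.8 CPM in control mice. The groups overlapped and the log2 fold change was 0.02 ± 0.09 (edgeR adjusted p = 0.860), with a sign that changed under upper quartile factors (-0.07) and library size alone (-0.65). Txnrd1 (ENSMUSG00000020250, chr10:82669785-82733546, plus strand), cytosolic thioredoxin reductase, was at 143, 149 and 167 CPM in acute ethanol-exposed mice and at 108, 102 and 95.8 CPM in control mice. All acute ethanol-exposed mice lay higher, with a log2 fold change of 0.58 ± 0.11 (edgeR adjusted p = 0.00503) that stayed under the fold threshold and that was -0.09 with library size alone. Genes that overlap Txnrd1 or Gsr held at most 26 counts in any library.

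Srxn1 (ENSMUSG00000032802, chr2:151947436-151951242, plus strand) encodes sulfiredoxin, which repairs over-oxidised peroxiredoxins. It stood at 184, 104 and 44.3 CPM in ethanol replicates 1 to 3 and at 31.9, 31.3 and 32.7 CPM in control replicates 1 to 3. On this scale all acute ethanol-exposed mice lay above all controls, though far apart from each other. On the deposited FPKM, which is scaled by library size, ethanol replicate 3 (11.3) lay under all control mice (13.1 to 13.6). Srxn1 rose by 1.79 ± 0.45 on the log2 scale (edgeR adjusted p = 0.0163), the mean being 3.47 times that of control mice. Without ethanol replicate 3 the rise was 2.18 (edgeR adjusted p = 0.000135), and without ethanol replicate 1 it was 1.22 (edgeR adjusted p = 0.0378). Leaving out control replicate 1, 2 or 3 ended the call (1.79, 1.78 and 1.81, edgeR adjusted p of 0.0635, 0.0622 and 0.0611). Library size alone ended it too (1.13, edgeR adjusted p = 0.0623), as did the 3 limma settings (0.86 to 0.89, limma adjusted p of 0.134 to 0.142). Ethanol replicate 3 was thus the lowest acute ethanol-exposed mouse in Srxn1 and Gclc and the highest in Hmox1.

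Of 17 thioredoxins, peroxiredoxins, glutaredoxins and related genes, all tested, 4 rose and none fell (23.5%, beside 24.2% of all genes), with a median log2 fold change of 0.41. Glrx5, a mitochondrial glutaredoxin of iron-sulfur cluster assembly, stood at 151, 147 and 119 CPM against 40.1, 43.2 and 41.0 CPM and rose by 1.75 ± 0.12 (edgeR adjusted p = 0.000155). Glrx, the cytosolic glutaredoxin, stood at 91.1, 93.6 and 134 CPM against 26.5, 25.4 and 25.3 CPM and rose by 2.05 ± 0.17 (edgeR adjusted p = 0.000233). Txnip, an inhibitor of thioredoxin that also responds to glucose, rose by 1.86 ± 0.39 (edgeR adjusted p = 0.00830), with 291, 334 and 106 CPM against 59.2, 67.3 and 74.5 CPM. Without ethanol replicate 3 the rises of Glrx and Txnip were 1.86 and 2.23. The fourth was Sesn1, which encodes a sestrin (1.63, and 1.99 without ethanol replicate 3), and its call was lost with library size alone (0.98). Thioredoxin itself (Txn1, 0.10 ± 0.10, edgeR adjusted p = 0.414) and Prdx1 (0.29 ± 0.12, edgeR adjusted p = 0.0837), a substrate of sulfiredoxin, did not pass.

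Nqo1 (ENSMUSG00000003849, chr8:108114857-108129838, minus strand), the quinone reductase often read as an NRF2 target, was low in all mice. It stood at 3.68, 3.20 and 4.10 CPM in acute ethanol-exposed mice and at 3.22, 3.79 and 3.22 CPM in control mice. The groups overlapped and the log2 fold change was 0.10 ± 0.20 (edgeR adjusted p = 0.695), while with library size alone it was -0.57. Of 16 other NRF2 targets of detoxification and export, 3 rose and 1 fell (25.0%, beside 24.2% of all genes), with a median log2 fold change of 0.19. Abcc4, a basolateral exporter, rose by 1.58 ± 0.38 (edgeR adjusted p = 0.0142), and by 1.79 without ethanol replicate 3. With library size alone its call was lost (0.92, edgeR adjusted p = 0.0795). The carbonyl reductases Cbr1 (1.09 ± 0.19, edgeR adjusted p = 0.00423) and Cbr3 (1.30 ± 0.37, edgeR adjusted p = 0.0280) rose as well. Cbr1 was at 74.5, 83.0 and 122 CPM against 47.8, 41.9 and 41.9 CPM. Its log2 fold change was 0.86 without ethanol replicate 3, 0.99 with upper quartile factors and 0.41 with library size alone, all under the threshold. Cbr3 stayed at 0.765 to 1.06 CPM in acute ethanol-exposed mice, and lost its call without ethanol replicate 2 (edgeR adjusted p = 0.0750) or control replicate 1, 2 or 3 (edgeR adjusted p of 0.0764, 0.0612 and 0.102). The call was also lost with the replicate number as a block (1.30, edgeR adjusted p = 0.0815) and with library size alone (0.64). Ugdh, which makes the UDP-glucuronate used for conjugation, fell by 1.04 ± 0.18 (edgeR adjusted p = 0.00374), by 0.89 without ethanol replicate 3 and by 0.94 without control replicate 2.

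Supply of NADPH, which both reductases need, was described by 7 genes, of which none rose and 1 fell (14.3%, beside 24.2% of all genes), with a median log2 fold change of -0.69. G6pdx, the first enzyme of the pentose phosphate pathway, stood at 2.03, 2.42 and 3.26 CPM against 7.61, 6.30 and 5.88 CPM and fell by 1.36 ± 0.24 (edgeR adjusted p = 0.00385). Me1, malic enzyme, had a log2 fold change of -0.69 ± 0.18 (edgeR adjusted p = 0.0176). By the adjusted p alone, 4 of the 7 were lower and 2 higher, beside 21.5% of all genes in each direction. Of the 4 genes of superoxide dismutases and catalase, 1 rose and 0 fell (25.0%, beside 24.2% of all genes), with a median log2 fold change of 0.42. By the adjusted p alone, 2 were higher and 1 lower. Sod1 rose by 1.02 ± 0.10 (edgeR adjusted p = 0.000378), at 564, 540 and 569 CPM against 275 CPM in each control mouse. This was close to the fold threshold, and under it with upper quartile factors (0.92), no filter (0.99) and library size alone (0.35). Sod2 (0.78 ± 0.21, edgeR adjusted p = 0.0213), Cat (-0.66 ± 0.16, edgeR adjusted p = 0.0135) and Sod3 (0.06 ± 0.12, edgeR adjusted p = 0.737) were not DEGs.

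Over all 9 lists, 16 of 99 tested genes rose and 7 fell, where 10.4% of all genes were called higher and 13.8% lower. In either direction this is 23.2% beside 24.2% of all genes, and the median log2 fold change was 0.32 beside -0.04. With library size alone, 7 of the 16 and all 7 of the lower genes were still called. In total, 7 genes of the lists were called higher and 19 lower in that setting. The 9 lost there were Abcc4 (0.92), Bach1 (0.96), Blvrb (0.39), Cbr1 (0.41), Cbr3 (0.64), Gpx3 (0.55), Oplah (0.36), Sesn1 (0.98) and Sod1 (0.35). Upper quartile factors left 11 of the 16 called (Blvrb, Cbr1, Gpx3, Oplah and Sod1 were lost) and no filter left 13 (Gpx3, Oplah and Sod1 were lost), again with all 7 of the lower genes. With the trend with transcript length removed, Nfe2l1 (-0.9999) and Ugdh (-0.80) came under the fold threshold. All 23 kept their direction in each of these settings.

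Ratios of partner genes within a library do not depend on the scaling between libraries. Of 6 planned ratios, 5 could be computed, since Slc7a11 had libraries at 0 counts. The exact permutation test (two-sided) cannot give a p under 0.1 with 3 against 3 libraries. The ratio of Gclc to Gclm counts was 1.10, 1.27 and 0.512 in acute ethanol-exposed mice and 2.0, 1.96 and 1.83 in control mice, a difference of -1.11 on the log2 scale (exact p = 0.1, adjusted over the 5 ratios 0.125) that was -0.71 without ethanol replicate 3. Catalytic subunit transcripts were thus lower against those of the modifier subunit in all 3 acute ethanol-exposed mice. The ratio of Txnrd1 to Gsr was 2.84, 3.09 and 3.19 against 2.12, 2.06 and 2.0 (log2 difference 0.56, exact p = 0.1). Hmox1 to Hmox2 gave 0.529, 0.539 and 0.712 against 0.322, 0.372 and 0.329 (log2 difference 0.79, exact p = 0.1, and 0.65 without ethanol replicate 3). Srxn1 to Prdx1 gave 0.248, 0.169 and 0.0716 against 0.0610, 0.0564 and 0.0606 (log2 difference 1.28, exact p = 0.1, and 1.79 without ethanol replicate 3). In these 4 ratios the groups did not overlap. The CPM values of single genes did not overlap in 59.0% of all genes tested, and no such share was computed for ratios. Nfe2l2 to Keap1 gave 2.91, 2.08 and 1.12 against 1.49, 1.75 and 1.73, which overlapped (log2 difference 0.19, exact p = 0.7, and 0.57 without ethanol replicate 3).

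**Figure D3:**
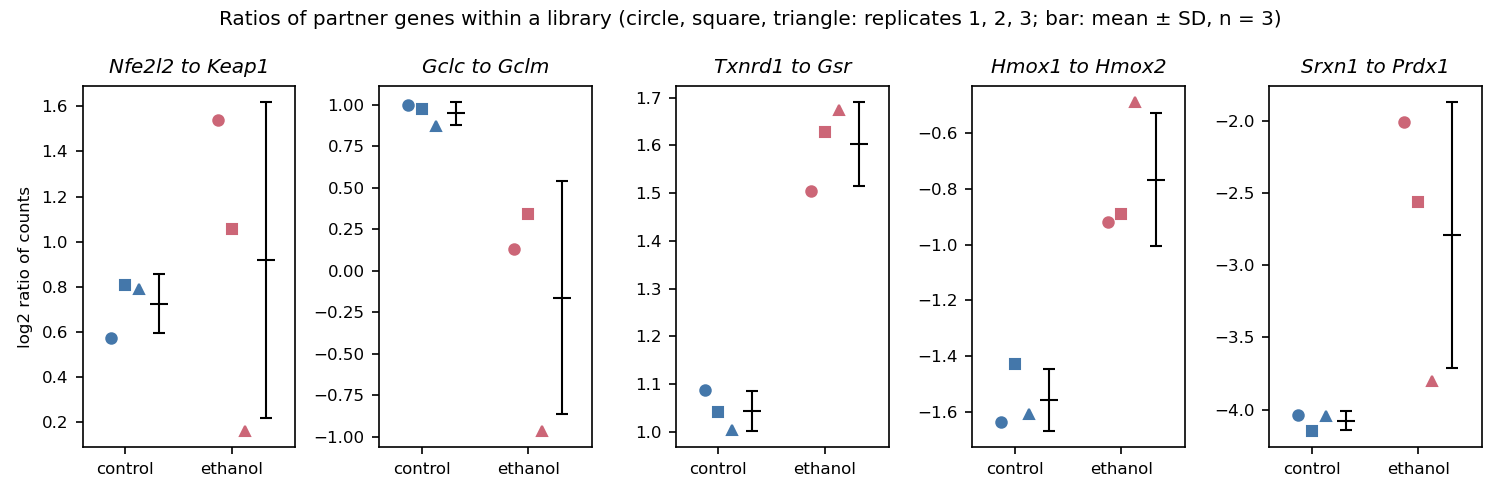
Log2 ratio of the counts of partner genes within each library (circle, square and triangle for replicates 1, 2 and 3, bar for mean ± SD, n = 3). Gclc to Gclm lies lower, and Txnrd1 to Gsr, Hmox1 to Hmox2 and Srxn1 to Prdx1 higher, in all 3 acute ethanol-exposed mice, while Nfe2l2 to Keap1 overlaps between the groups.

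Levels of different genes were compared on the deposited FPKM, which is per transcript length. In control mice the mean FPKM ran from Gclc (92.9 ± 3.4, SD, n = 3) through Gclm (28.8 ± 0.64), Gsr (21.2 ± 0.76), Nfe2l2 (19.6 ± 0.93), Txnrd1 (17.0 ± 1.1), Srxn1 (13.4 ± 0.28), Keap1 (9.59 ± 0.41) and Hmox1 (5.50 ± 0.43) to Nqo1 (2.58 ± 0.25). No neighbours in this order overlapped over the 3 control mice. In acute ethanol-exposed mice the order opened with Srxn1 (29.1 ± 18.0) and Gclc (22.1 ± 11.7), which overlapped each other, and Gclc overlapped Txnrd1 (16.0 ± 1.2). Gsr (13.5 ± 0.24), Gclm (13.2 ± 2.2), Hmox1 (11.0 ± 5.7) and Nfe2l2 (10.1 ± 2.9) overlapped each with the next. Keap1 (4.27 ± 0.89) and Nqo1 (1.74 ± 0.14) stood apart below them, and Slc7a11 was under 0.01 FPKM in every library.

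FPKM is scaled by library size, and on that scale most of the genes lay lower in acute ethanol-exposed mice. Scaling by library size alone moved the median change over the whole table from -0.04 to -0.71, and called 846 genes higher and 5385 lower (86.4% lower) in place of 1738 and 2301 (57.0% lower). Upper quartile factors gave a median of -0.14 and 63.4% lower, removal of the trend with transcript length 0.10 and 45.9% lower, and limma on log2(FPKM + 1) -0.31 and 80.8% lower. With library size alone and with limma, Hmox1 and Srxn1 were no longer DEGs, whereas Gclm and Keap1 joined Gclc as downregulated. The log2 fold changes with library size alone were 1.00 for Hmox1, 1.13 for Srxn1, -2.07 for Gclc, -1.12 for Gclm and -1.16 for Keap1. Hmox1 and Srxn1 were positive and Gclc negative under all 17 settings. Taken relative to the median of all genes in each setting, Hmox1 ran from 1.09 to 1.97, Srxn1 from 1.16 to 2.26, Gclc from -1.87 to -0.97 and Txnrd1 from 0.22 to 0.70.

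**Figure D4:**
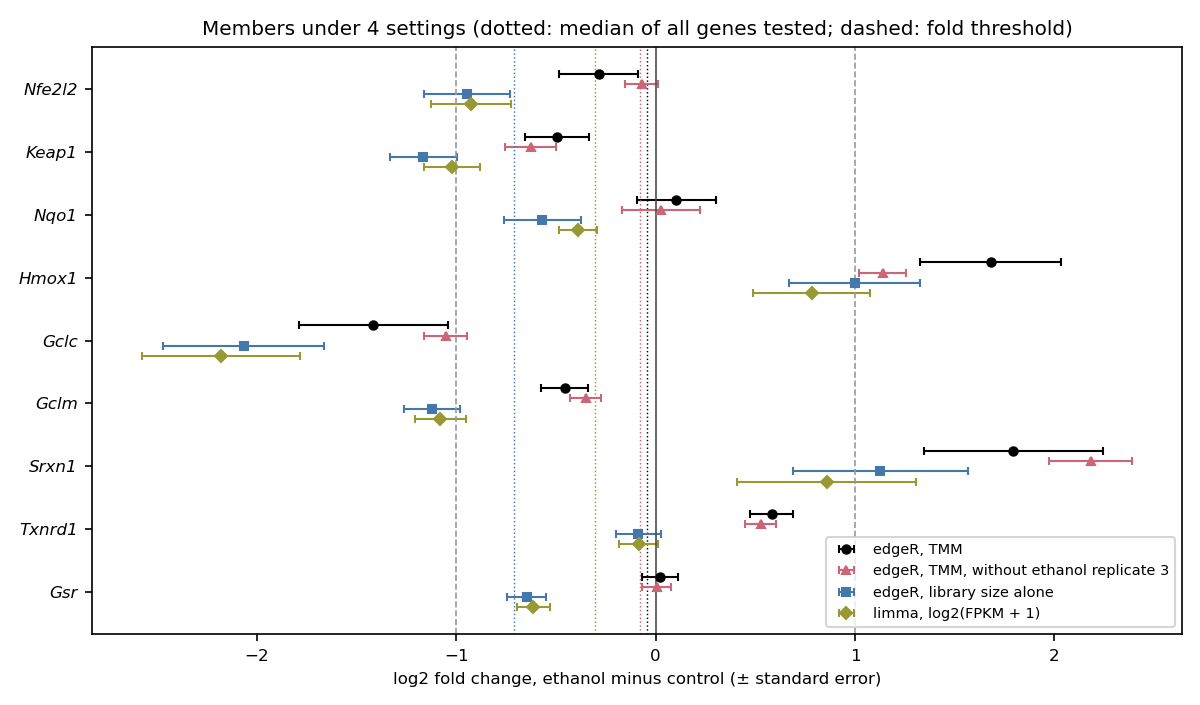
Log2 fold change (acute ethanol-exposed minus control mice, ± SE) of the 9 tested genes under 4 settings, with dotted lines at the median of all genes in each setting and dashed lines at the fold threshold. Hmox1 and Srxn1 stay right of 0 and Gclc left of it in every setting, while Txnrd1, Nqo1 and Gsr lie left of 0 with library size alone (-0.09, -0.57 and -0.65).

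The genes nearest in pattern were taken for the members with the smallest adjusted p and the largest change, by Euclidean distance between centred log2 CPM over the 6 libraries. For Txnrd1 these were Ik (0.0684), Lin7c (0.104) and Serpina1d (0.111), where the median distance of all genes was 1.42. For Srxn1 they were Cracdl (0.430), Samd4 (0.482) and Sh3pxd2b (0.488), beside a median of 2.71.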

How the data were processed

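Liver RNA from 3 acute ethanol-exposed and 3 control mice was sequenced (paired-end, 150 bp). The authors deposited a whole-number read count per gene, not normalized, with an FPKM value (reads per transcript length and library size) beside it. The authors removed adaptor, low-quality and ambiguous reads. The aligner, the counting software and whether the strand was used are not given in the sources used here. The submitters' processing notes name GRCm38 and mm10, yet only 539 of the 27049 genes shared with GENCODE M21 (GRCm38) have the same start and end in the table. Gene coordinates are therefore printed as deposited, on an unnamed build, and promoter windows are on GRCm38.p6. In the table, 1 column of counts matched no sample and was not used.

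Counts were filtered by filterByExpr, scaled by TMM and tested without covariates by edgeR 4.0.16 (quasi-likelihood, Benjamini-Hochberg) in R 4.3.3. CPM were computed over TMM-scaled library sizes. Alternatives were RLE, upper quartile and library size scaling, offsets that remove the trend with transcript length, no filter, DESeq2 1.42.0, limma 3.58.1 on log2(FPKM + 1) (mean FPKM of at least 0.1 or 1) and log2(FPKM + 0.1), the replicate number as a block, the adjusted p alone, and each library left out in turn. Ratios were tested by exact permutation. Scripts were tested on simulated data.

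At 60514417 to 74210869 counts per library, the 3 mice per group rather than the depth limit the precision, except for genes with few counts. The members and lists were chosen with earlier results of these data known. All 10 members are named. From each list, named are DEGs among the 3 smallest adjusted p in a direction, plus a fixed set of known genes. Bach2, Sesn1, Gsta1, Gsta4, Gstm1, Gstp2 and the marker genes were named after their values were seen. Libraries of a group differed by more than counting noise (chi-square over its degrees of freedom, 54.8 to 536). This sets separate mice against counting noise alone, so no conclusion is drawn from it.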

Additional observations from a re-analysis of the deposited data

How the results depend on the processing

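The directions of Hmox1, Srxn1 and Gclc and of the 23 pathway DEGs held under every setting that gave a value (21 of the 23 with limma at a mean FPKM of at least 1), and 12 to 23 of the 23 were still called. The number of members called higher was 0 in place of 2 with library size alone and with all 3 limma settings, and the number called lower was 3 in place of 1 there and by the adjusted p alone. Leaving out one library gave 1 to 2 higher and 0 to 1 lower. Higher pathway genes numbered 16, but 7 with library size alone, 5, 6 and 5 with limma on log2(FPKM + 1), on log2(FPKM + 0.1) and at a mean FPKM of at least 1, and 35 by the adjusted p alone. Lower pathway genes numbered 7, but 19, 14, 20, 14 and 16 in the same order. Over all genes, 846, 408, 752, 393 and 3598 were higher in that order, and 5385 with library size alone, 4965 with limma on log2(FPKM + 0.1) and 3591 by the adjusted p alone were lower.

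The log2 fold change of Nqo1 reversed to -0.57 with library size alone and to -0.39, -0.55 and -0.39 with the 3 limma settings, and that of Txnrd1 to -0.087, -0.086, -0.091 and -0.086 in the same order. Gsr reversed to -0.65 with library size alone, -0.074 with upper quartile factors, -0.0072 without the filter and -0.61, -0.65 and -0.61 with limma, and ran from -0.0073 (without control replicate 3) to 0.048 with a library left out. The Nfe2l2 to Keap1 log2 difference ran from -0.12 (reversed, without ethanol replicate 1, exact p = 0.8) to 0.57 (without ethanol replicate 3, exact p = 0.1). The cause was not tested. With FPKM in place of counts, the ratios kept their direction.

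Deviations of same-numbered libraries from their group means correlated at -0.035, -0.021 and -0.017, beside -0.0068 to 0.029 for libraries of unlike number. With 3 libraries per group this cannot exclude a shared litter or day, which the labels do not give. With the replicate number as a block, 1518 genes were called higher and 2000 lower, and the same 3 members were called. The edgeR adjusted p was then 0.0694 for Keap1 and 0.0501 for Gclm. Of the 23 pathway DEGs, 22 were still called, and Cbr3 was lost (1.30, edgeR adjusted p = 0.0815). Depth limits only Slc7a11 among the members.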
